A study of Saccharomyces cerevisiae with 6 samples.

Results

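The genes described here encode the meiosis-specific machinery of DNA strand exchange in budding yeast: DMC1, HED1, HOP2, MND1, SAE3 and MEI5. They were found by symbol in the deposited table, HED1 by its systematic name YDR014W-A because the table gives it no symbol, and all 6 were present among 6679 open reading frames (ORFs). The libraries were poly(A)-selected, directional mRNA libraries of the laboratory strain SK1 sampled during meiosis. Cells grown in YPD and then BYTA medium were moved to sporulation medium and, 5 h later, received either the inducer labelled bEST or ethanol as vehicle. A single library was made of each treatment at 6, 6.5 and 7 h, that is 1, 1.5 and 2 h past the addition, giving 3 inducer and 3 vehicle libraries. The inducer drives high levels of spliced HAC1, the mRNA of the transcription factor of the unfolded protein response. Every library carries the genotype label WT, no label names the HAC1 construct, and an inducer control lacking that construct was not analysed here, so effects of the inducer and of HAC1 cannot be told apart. Nothing in the labels says whether the libraries came from separate cultures, and the p-values below measure only the spread between these libraries.

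In meiosis, programmed double-strand breaks are resected to single-stranded DNA, on which filaments of a recombinase of the RecA family invade an intact duplex. Dmc1, such a recombinase made only in meiosis, catalyses most of this exchange between homologous chromosomes. Mei5 and Sae3 form a complex that helps Dmc1 load on single-stranded DNA, Hop2 and Mnd1 form a complex that stimulates the Dmc1 filament and its capture of duplex DNA, and Hed1 is a meiosis-specific regulator of strand exchange.

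The deposited values are RPKM-type, that is, reads per length and per library size. The value of the members could be turned back into whole reads, between 589 and 21304 per gene and library, so the counting error alone was 0.7 to 4.1% of each value (this covers counting only, not PCR duplicates). DMC1, at its spliced coding length in the reference annotation (1005 bp), set the unit of each library, so its own length was not tested. For the other members, the length sought gave whole reads in all 6 libraries once 60 bp were taken off. This was the spliced coding length of the reference for HED1 (489 bp), MND1 (660 bp) and SAE3 (276 bp). It was 657 bp against 645 bp in the reference for HOP2, and 666 bp against 669 bp for MEI5. Reads per library, recovered in the same way, were 6.0 to 21.7 megareads. HAC1 stood at 28926, 48866 and 53257 with inducer at 6, 6.5 and 7 h, against 127, 128 and 98.4 in vehicle. Levels of the late spore wall gene DIT1 at the same times were 263, 692 and 1435 with inducer and 200, 593 and 1407 in vehicle. DIT1 was higher at each later time in both treatments, but the 9 late spore wall genes did not all do so: their median difference at 7 h against 6 h was 0.00 with inducer and 0.24 in vehicle, and CDA2 was at -0.64 with inducer and 0.04 in vehicle. Between inducer and vehicle 0 of the 9 passed in either direction, beside 10.0% of all tested ORFs called higher and 8.35% called lower.

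All 6 transcripts were abundant and passed the filter on low values, a 6-library mean of 5 or more. DMC1 was the highest member in every library, at ranks 94 to 285 of all ORFs, and MND1 the lowest, at ranks between 688 and 1859. On the per-length scale the means over the 6 libraries were 3754 for DMC1, 1961 for SAE3, 1600 for HED1, 1569 for HOP2, 1017 for MEI5 and 614 for MND1. Each of these steps held in 6 of 6 libraries except that between HED1 and HOP2, where HED1 was higher in 3 of 6. With inducer SAE3 and HED1 were close, at 1685 and 1663 at 6.5 h and at 1471 and 1464 at 7 h. These gaps were smaller than the counting error of SAE3 (1.9% and 3.1%). This scale takes 60 bp off each coding length, which raises the value of SAE3 (276 bp) more than that of HED1 (489 bp). It likewise raises HED1 more than the longer HOP2. The order of SAE3 and HED1 in single libraries, and that of the HED1 and HOP2 means, depends on this. Neither holds throughout on the full coding length. SAE3 and MEI5, whose products work as a complex, thus differed in level in every library, and so did HOP2 and MND1.

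Between inducer and vehicle, the recombinase gene DMC1 and its accessory gene MND1 fell, and no member rose. With 2 of 6 members lower by limma over all ORFs (adjusted p under 0.05), the count stands beside 8.35% of the 6025 tested ORFs called lower and 10.0% called higher. The median change of the 6 members was -0.49 on the scale of log2(value + 1), against -0.08 for all tested ORFs. Without the 6 h pair the members' median was -0.71 and without the 7 h pair -0.23, against -0.09 for all tested ORFs in both cases. In bulk RNA, fewer cells of a kind and less transcript per cell cannot be told apart. At matched times 5 of the 6 members were lower with inducer at all 3 times, which was true of 36.9% of tested ORFs. With the times pooled, 0 of the 6 had all inducer libraries below all vehicle libraries, against 14.1% of tested ORFs, and 0 had them all above, against 17.3%. The 6 h inducer value of each member lay within its vehicle range.

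DMC1 (YER179W) stood at 4237, 2190 and 2377 with inducer at 6, 6.5 and 7 h, against 4969, 4194 and 4555 in vehicle. The inducer libraries of the last 2 times lay below every vehicle library, while that of 6 h lay just above the vehicle library of 6.5 h. The change at matched times was -0.70 ± 0.19 (standard error, SE, 3 pairs; limma adjusted p = 0.041), a 1.63-fold decrease with a 95% interval of -1.14 to -0.26. The difference was -0.23 at 6 h and -0.94 at both later times. The call was lost without either later pair: the adjusted p was 0.353 without the 6.5 h pair and 0.147 without the 7 h pair, each with a change of -0.58. Without the 6 h pair the change was -0.94 (adjusted p = 0.00967), and with no term for time the adjusted p was 0.111.

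**Figure D1:**
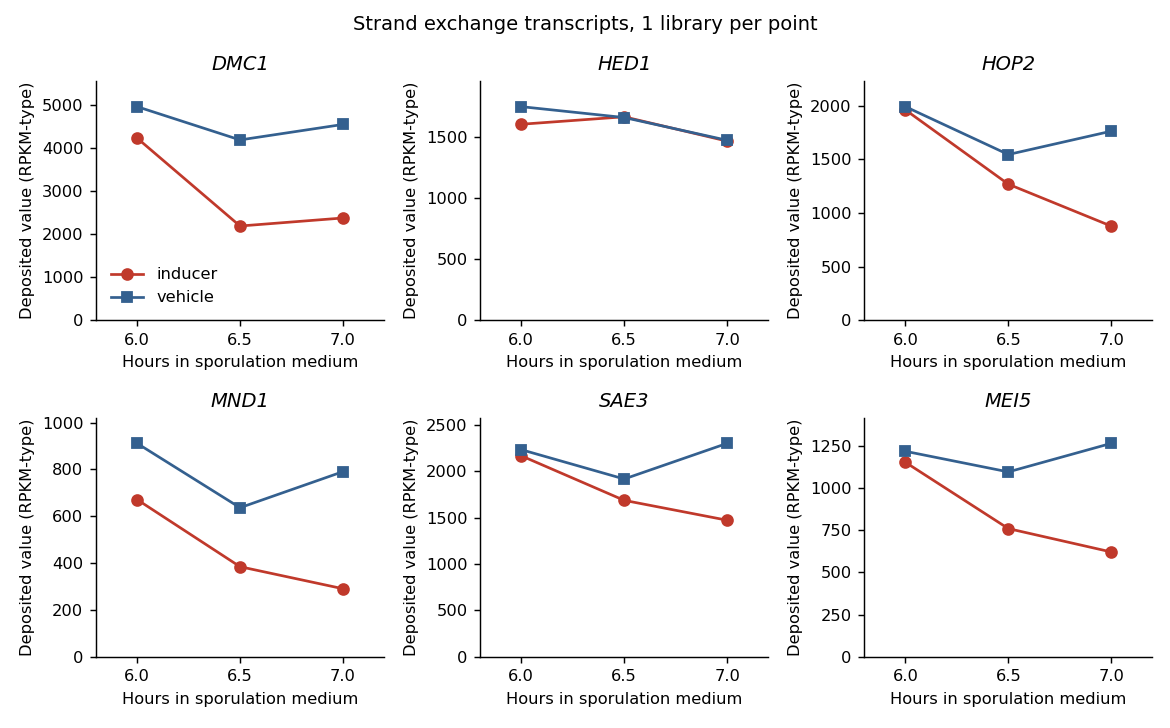
Deposited RPKM-type value (vertical axes, from 0) against hours in sporulation medium for each strand exchange gene, with inducer as circles and vehicle as squares and 1 library per point. DMC1, HOP2, MND1, SAE3 and MEI5 are lower with inducer at each time, HOP2, MND1, SAE3 and MEI5 most so at 7 h, and the HED1 lines nearly coincide. At 6 h the HOP2, SAE3 and MEI5 points nearly coincide too (log2 differences of -0.02, -0.04 and -0.08).

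Of the genes of the Hop2-Mnd1 complex, MND1 passed the test and HOP2 did not. MND1 (YGL183C) stood at 671, 385 and 291 with inducer, against 911, 636 and 790 in vehicle. Its 6 h inducer value lay between the vehicle values, and the later ones lay below all of them. The change was -0.87 ± 0.20 (3 pairs; limma adjusted p = 0.0273), a 1.83-fold decrease. It was the largest of the 6 members, and the differences were -0.44, -0.73 and -1.44 at 6, 6.5 and 7 h. At 7 h only 34 ORFs, 0.564% of those tested, had a difference as low. The call was lost without the 6.5 h pair (adjusted p = 0.124), without the 7 h pair (-0.58, adjusted p = 0.102) and with no term for time (adjusted p = 0.091), and kept without the 6 h pair (-1.08, adjusted p = 0.0087).

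HOP2 (YGL033W) stood at 1963, 1269 and 877 with inducer, against 1993, 1546 and 1764 in vehicle. At 6 h the treatments differed by -0.02, at 6.5 h by -0.28 and at 7 h by -1.01. The change over all pairs was -0.44 ± 0.21 (limma adjusted p = 0.176; 95% interval -0.92 to 0.04), so HOP2 did not pass the test. Without the 7 h pair it was -0.15.

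The ratio of HOP2 to MND1 within a library was 2.93, 3.30 and 3.02 with inducer at 6, 6.5 and 7 h, against 2.19, 2.43 and 2.23 in vehicle. The treatments did not overlap, and the log2 difference was 0.42, 0.44 and 0.44 at the 3 times. Of single tested ORFs, 14.1% had all inducer libraries below all vehicle libraries and 17.3% had them above. How often the ratios of other gene pairs separate was not tested. The mean ratio was 1.35-fold higher with inducer (exact two-sided permutation test, p = 0.10, the smallest that 3 against 3 libraries allow; 0.15 adjusted over the 3 ratios given here).

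The genes of the Mei5-Sae3 loading complex were lower at each time but neither passed the test. MEI5 (YPL121C) stood at 1151, 759 and 620 with inducer, against 1216, 1094 and 1263 in vehicle, and its change was -0.54 ± 0.20 (limma adjusted p = 0.0932; 95% interval -1.00 to -0.09). Without the 6 h pair it was -0.78 (adjusted p = 0.0241), without the 6.5 h pair -0.55 (adjusted p = 0.378) and without the 7 h pair -0.30 (adjusted p = 0.298). SAE3 (YHR079C-A) stood at 2165, 1685 and 1471 with inducer, against 2231, 1915 and 2299 in vehicle, a change of -0.29 ± 0.17 (adjusted p = 0.26; 95% interval -0.68 to 0.10), or -0.11 without the 7 h pair. For both genes the 6 h libraries were close, with differences of -0.08 for MEI5 and -0.04 for SAE3. By 7 h the differences were -1.03 and -0.64. The ratio of SAE3 to MEI5 was 1.88, 2.22 and 2.37 with inducer, against 1.83, 1.75 and 1.82 in vehicle. These groups did not overlap either, though at 6 h they were only 0.04 apart on the log2 scale (exact permutation test, p = 0.10, adjusted 0.15).

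HED1, the regulator's gene, stood at nearly the same level in both treatments. HED1 (YDR014W-A) stood at 1602, 1663 and 1464 with inducer, against 1746, 1657 and 1471 in vehicle. The treatments overlapped, and the values spanned only 1.19-fold over all 6 libraries, against 3.14-fold for MND1 and 2.27-fold for DMC1. The change was -0.04 ± 0.14 (limma adjusted p = 0.855), with a 95% interval of -0.37 to 0.28. The ratio of HED1 to DMC1 was 0.378, 0.760 and 0.616 with inducer, against 0.351, 0.395 and 0.323 in vehicle. Its mean on the log2 scale was 0.66 higher with inducer, with differences of 0.11, 0.94 and 0.93 at 6, 6.5 and 7 h, but the 6 h inducer ratio lay within the vehicle range (exact permutation test, p = 0.2, adjusted 0.2). That test cannot go below 0.10 with 3 against 3 libraries.

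**Figure D2:**
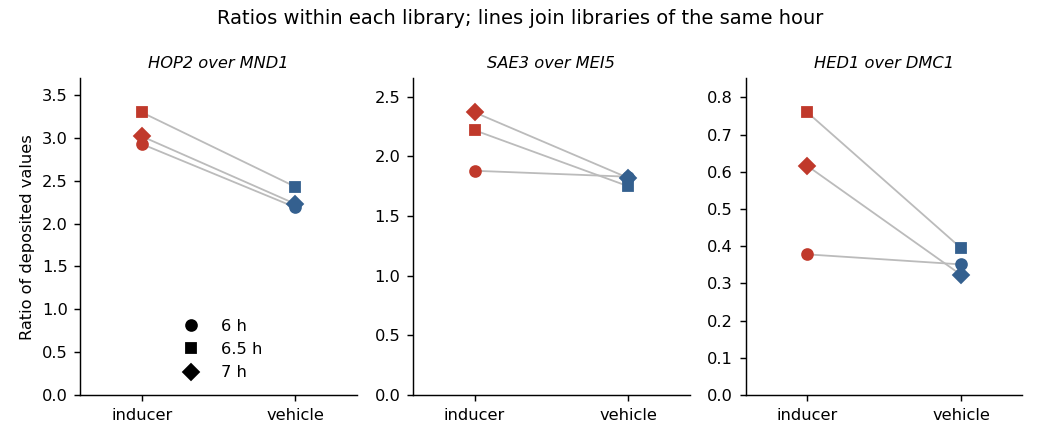
Ratio of deposited values within each library (vertical axes, from 0) for 3 gene pairs, with inducer on the left and vehicle on the right, symbols for the hour and grey lines joining libraries of the same hour. HOP2 over MND1 and SAE3 over MEI5 separate the treatments, and HED1 over DMC1 overlaps.

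Over time, none of the 6 members passed the test by limma, where 0.249% of tested ORFs were called higher and 0.415% lower. Their change per hour, fitted over both treatments, lay between -0.70 ± 0.26 for MND1 (adjusted p = 0.174) and -0.19 ± 0.15 for HED1 (adjusted p = 0.485), with a median of -0.45. For all tested ORFs the median was -0.15, which became 0.00 when each library was centred on its own median. The members' median was then -0.30. Without centring it was -0.09 without the 6 h pair and -0.87 without the 7 h pair. At 7 h against 6 h the members differed by -1.21 for MND1, -1.16 for HOP2, -0.89 for MEI5, -0.83 for DMC1, -0.56 for SAE3 and -0.13 for HED1 with inducer. In vehicle they differed by -0.20 for MND1, -0.18 for HOP2, 0.06 for MEI5, -0.13 for DMC1, 0.04 for SAE3 and -0.25 for HED1. In vehicle DMC1, HOP2, MND1, SAE3 and MEI5 were each lowest at 6.5 h, in the shallowest library, and stood higher again at 7 h; the part of depth in this was not tested.

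The difference between the treatments in change per hour was negative for 5 members, from -1.00 ± 0.37 for MND1 (limma adjusted p = 0.341) and -0.98 ± 0.32 for HOP2 (adjusted p = 0.281) to -0.60 ± 0.31 for SAE3, and 0.12 ± 0.28 for HED1 (adjusted p = 0.917). The HED1 value was -0.01 with each library centred on its median. The median of this difference was -0.83 for the members and 0.07 for all tested ORFs. Other meiotic lists, described below, were mostly negative as well. The difference was negative for 21 of 24 other early, 20 of 20 middle meiotic and 8 of 9 late spore wall genes. No member passed, nor did any of the 6025 ORFs (0.00% higher and 0.00% lower; 714 had an unadjusted p under 0.05), in a fit with 2 residual degrees of freedom before the prior. The later widening of the difference is therefore a description of single libraries.

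**Figure D3:**
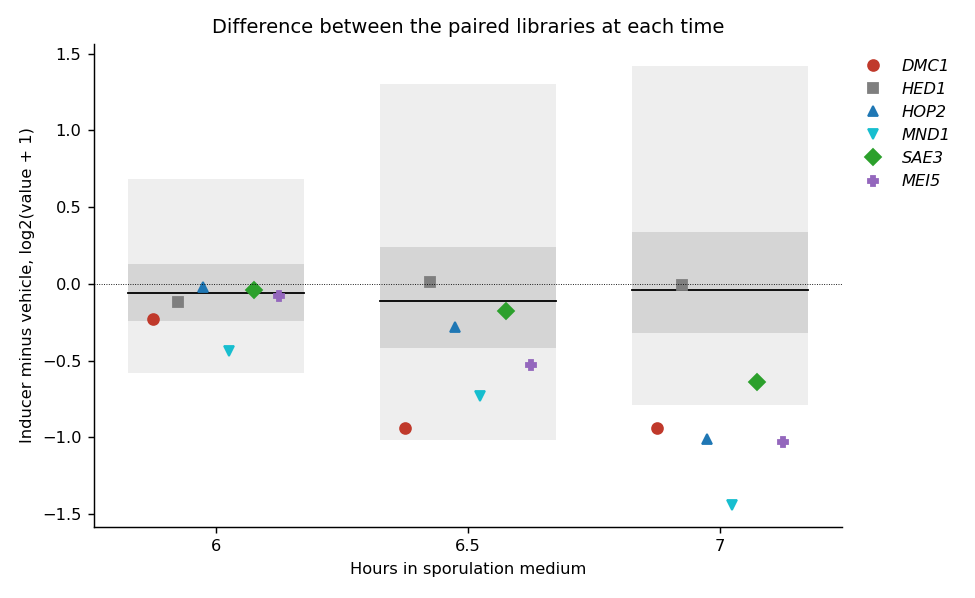
Inducer minus vehicle on the scale of log2(value + 1) at each hour, 1 pair of libraries per hour, for the 6 genes (symbols) over all 6025 tested ORFs (light bar, 5th to 95th percentile; dark bar, middle quartiles; line, median). At 6 h the genes lie from -0.44 to -0.02, and at 7 h all but HED1 lie between -1.44 and -0.64, below the middle quartiles.

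Other recombination genes, which work in dividing cells as well, went both ways. Of 17 such genes 3 rose and 2 fell, beside 10.0% of all tested ORFs called higher and 8.35% called lower. The median of the 17 was -0.26, against -0.08 for all tested ORFs. PSY3, a subunit of the Shu complex of recombinational repair, stood at 1029, 1882 and 2103 with inducer, against 204, 174 and 197 in vehicle, and rose by 3.06 ± 0.23 (limma adjusted p = 0.000542), 8.32-fold. It passed without any one of the pairs, with adjusted p between 1.82e-05 and 0.0313. RAD55, whose product acts as a dimer with Rad57 in recombinational repair, rose by 1.24 ± 0.17 (adjusted p = 0.00495), and it stood at 39.9, 55.7 and 51.7 with inducer, against 19.6, 22.4 and 18.4 in vehicle. Without the 7 h pair the adjusted p of RAD55 was 0.0633. SHU1, another Shu subunit, rose by 0.49 ± 0.14 (adjusted p = 0.0481).

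CSM2, the Shu subunit that pairs with Psy3, went the other way. It stood at 68.9, 37.7 and 32.0 with inducer, against 90.1, 79.4 and 84.6 in vehicle. The treatments did not overlap, and 14.1% of tested ORFs likewise had all inducer libraries below all vehicle libraries. CSM2 fell by 0.94 (SE 0.20, limma adjusted p = 0.0193). RAD52, a central gene of recombinational repair, fell by 0.52 (SE 0.13; adjusted p = 0.0331). Calls for SHU1, CSM2 and RAD52 were lost without the 6.5 h or the 7 h pair, with adjusted p of 0.183 and 0.172, of 0.105 and 0.113, and of 0.30 and 0.101. The fourth Shu subunit, SHU2, was at 0.22 ± 0.13 (adjusted p = 0.248) and RAD57 at -0.26 ± 0.13 (adjusted p = 0.19). The translocase gene RDH54 was at -0.44 ± 0.16 (adjusted p = 0.0891).

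**Figure D4:**
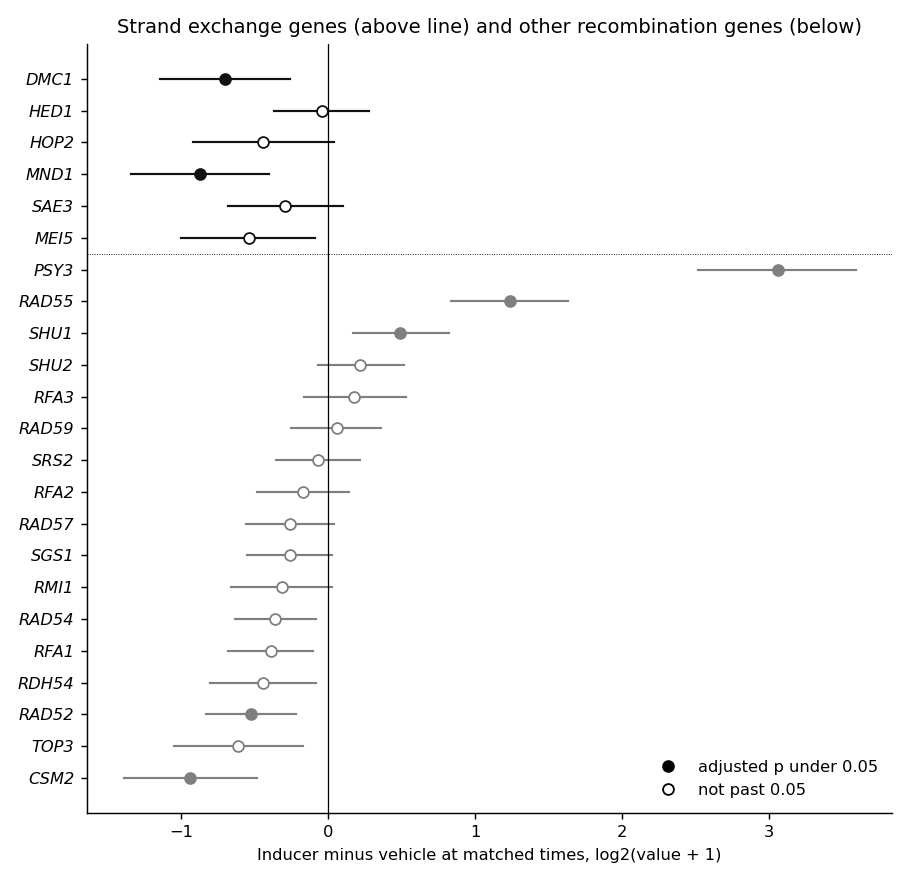
Inducer minus vehicle at matched times on the scale of log2(value + 1) with 95% intervals from limma, for the 6 strand exchange genes (above the dotted line) and 17 other recombination genes (below it, ordered by change). Filled points passed an adjusted p of 0.05: DMC1 at -0.70 and MND1 at -0.87 fell, while PSY3 at 3.06 lies far to the right.

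Other early meiotic genes, which act in break formation, on the chromosome axis and in synapsis, were lower with inducer in part. Among 24 such genes there were 10 that fell and 0 that rose, beside 8.35% of all tested ORFs called lower and 10.0% called higher. The median of the 24 was -0.60, against -0.08 for all tested ORFs. ZIP2, for a protein of the synapsis initiation complex, SPO13, a meiosis I regulator, and the axis genes RED1 and HOP1 fell by 0.84, 0.85, 0.72 and 0.86 (limma adjusted p between 0.0158 and 0.0184). Without the 6 h pair 18 of these genes fell and 1 rose, without either other pair 0 passed, and with no term for time 1 fell. The list medians at 6, 6.5 and 7 h were -0.15, -0.66 and -0.91, beside -0.10, -0.41 and -0.97 for the strand exchange genes. For all tested ORFs these medians were -0.06, -0.11 and -0.04. Of 20 middle meiotic genes 1, SPO1, fell by 0.75 and none rose, beside the same shares of all tested ORFs. The medians of these 20 genes at 6, 6.5 and 7 h were 0.02, -0.02 and -0.57, so they too were lower at 7 h. Without the 6 h pair 2 of them fell, and 0 fell without either other pair or with no term for time.

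Markers of cells outside meiosis were detected in all libraries. Of 13 haploid mating genes BAR1 and MFA1 rose and FUS3 fell, and in the list of 14 G1 genes of mitotic cells PRY3 and DSE1 rose and PCL1 fell. These counts stand beside the 10.0% of all tested ORFs called higher and 8.35% called lower. None of the genes of either list passed without the 6.5 h or the 7 h pair, while 4 mating genes were called higher without the 6 h pair or with quantile normalization. The summed level of the mating genes ranged over 4095 to 5027 with inducer and 3512 to 4018 in vehicle, and that of the G1 genes over 579 to 978 with inducer and 521 to 602 in vehicle. Single genes weigh much in these sums: DSE1 stood at 98.9, 295 and 363 with inducer, and MFA1 at 599, 1191 and 1573. In vehicle DSE1 stood at 60.1, 54.5 and 49.2, and MFA1 at 510, 397 and 463. STE18 was the largest part of the mating sum in every library. It stood at 2440, 2726 and 1742 with inducer, against 2304, 2109 and 2518 in vehicle. The median change was 0.11 for the mating genes, with 6 of 13 negative. It was -0.11 for the G1 genes, with 8 of 14 negative. No marker of either list was at 0 in all libraries. Their part in the lower strand exchange transcripts was not tested.

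The ORFs whose profile over the 6 libraries was most like the mean of the 6 members were UBC5, DPC13, ZIP1, CLB5 and YNR064C, among 4873 ORFs with a mean of at least 50. Likeness was measured as the root-mean-square difference between log2 profiles centred on their own means, which was 0.05 or 0.06 for these 5, against a median of 0.33. UBC5 encodes a ubiquitin-conjugating enzyme, ZIP1 the central element of the synaptonemal complex and CLB5 an S-phase cyclin. None of them passed the test between inducer and vehicle (changes of -0.55 to -0.41). Among the members MEI5 was closest to the mean, at 0.06, and HED1 farthest, at 0.32. Each member is part of that mean, which makes its distance smaller, so these values are not on equal terms with those of other ORFs. HOP2 was the 37th closest ORF to MEI5, while SAE3, the partner of MEI5, was the 136th. To MND1 the closest member was DMC1, at place 38, followed by MEI5 at place 60 and its partner HOP2 at place 73. Taken 1 gene at a time, the closest ORF was COS8 for DMC1, the 14-3-3 gene BMH1 for HED1, the polo kinase gene CDC5 for HOP2, YKL033W-A for MND1, the replication gene PSF2 for SAE3 and YNR064C for MEI5, at differences of 0.03 to 0.12. COS8 belongs to a family of similar subtelomeric genes, so its own value is uncertain.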

How the data were processed

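The authors deposited 1 table of RPKM-type values for 6679 ORFs in 6 libraries and no counts; the values themselves showed the unit. TopHat, Bowtie2 and SAMtools are named in the submitters' processing notes. Versions, genome build, annotation and strand use in counting: not given in the sources used here. Columns were matched to samples by name, and 0 columns were unmapped. Symbols and coding lengths came from the RefSeq table of assembly R64, which held 5994 of the ORFs. Because the build is not named, no coordinates or sequences are given. No other protein-coding gene of that table overlaps a member (0 for each). Overlap with the 685 deposited ORFs that are not in that table was not tested.

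With 60 bp taken off the coding length, low values were whole multiples of 1 constant per library (73.8 to 79.9% whole within 0.02 of a read, below 40 reads). The recovered reads served only to describe depth. By these reads the deposited values are 2.89 to 2.93 times plain RPKM in every library, for a reason not given in the sources used here, which leaves ratios as they are. Lengths of the members were searched from 200 to 1500 bp, with DMC1 at its reference length fixing the unit of each library.

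Values were transformed as log2(value + 1), which understates changes of low genes, and 6025 ORFs with a mean of at least 5 were tested with limma-trend (limma 3.58.1, R 4.3.3) and Benjamini-Hochberg adjustment over all of them. The treatments were compared with a 3-level factor for time. Change over time used treatment and hours, and the interaction their product. Libraries were paired by the sampling hour in their labels; deviations from the treatment means of same-hour libraries correlated across ORFs at 0.32, 0.00 and 0.11 for 6, 6.5 and 7 h, and those of other hours at -0.23 to 0.22. Ratios were compared with exact permutation tests (scipy 1.17.1). The tests were tried on simulated data. The alternatives were other pseudocounts, filters, scalings and codings of time, limma without its trend, and each pair left out. The planned test for normalised values was used, since the table holds no counts.

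Named genes were the 6 members, HAC1, called genes of the list of other recombination genes, and closest profiles. Up to 4 genes of each other list by smallest p were named as well. SHU2, RAD57, RDH54, STE18 and genes next to another named gene were chosen after their values were seen. 1 further gene, with its 2 ratios, is not reported here. Members and lists were chosen with earlier results of these data known.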

Additional observations from a re-analysis of the deposited data

How the results depend on the processing

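Between inducer and vehicle, each member kept its direction or stood at 0.00 in all 13 alternatives; DMC1 and MND1 passed in 8 of them, MEI5 in 1 and the others in 0. Over all ORFs 604 were higher and 503 lower. Without a filter on low values these counts were 3 and 0, with 0 members lower, and without the trend 260 were lower, with 0 members. With no replicate block (no time term) 145 ORFs and 0 members were lower. Without the 6, 6.5 and 7 h pair 723, 196 and 76 ORFs were higher, 535, 22 and 9 lower, and 3, 0 and 0 members lower. For the change over time, 15 ORFs were higher and 25 lower. These were 1 and 0 without a filter, 5 and 0 without the trend, and 6 and 1 for 7 h against 6 h with 6.5 h as its own level. Centring on medians gave 42 higher, quantile normalization 1 lower, HAC1 left out of the totals 39 lower, and leaving out a pair 0 to 6 higher and 0 to 1 lower. Without the 6 h pair the change over time of DMC1 was 0.24 and of SAE3 0.07, opposite in sign to the full fit, and centring turned the HED1 interaction to -0.01. Leaving out pairs was added for the 3 ratios after the data were seen, and each ratio kept its sign. The causes were not tested. The interaction could not be fitted without a pair, since no residual degrees of freedom remain. Counting error of the members was at most 4.1%; other effects of depth were not tested.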

Other observations

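The nearest protein-coding genes of the RefSeq table on each side of the members were compared as well. This was done because the deposited table does not say whether reads were counted by strand. ORFs outside the RefSeq table were not included. Next to MND1, STR3, for an enzyme of sulfur amino acid metabolism, averaged 160 with inducer and 67.7 in vehicle and rose by 1.14 (SE 0.19; limma adjusted p = 0.00989), opposite to MND1. Next to HED1, RAD61, a regulator of cohesin, averaged 51.4 with inducer and 35.3 in vehicle and rose by 0.55 (SE 0.15; adjusted p = 0.0477). IRE1, whose product splices HAC1 mRNA, is the neighbour of SAE3, and averaged 31.8 with inducer and 36.0 in vehicle (-0.17 ± 0.15, adjusted p = 0.476), far below the level of SAE3. The other 9 neighbours of members did not pass the test.

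The genes on both sides of PSY3 did not rise with it: STP3 was at 0.15 ± 0.14 (limma adjusted p = 0.472), and FBP1, for the gluconeogenic fructose bisphosphatase, averaged 386 with inducer and 577 in vehicle and fell by 0.57 (adjusted p = 0.0233). Next to RAD55, PPH3 was at 0.14 ± 0.12 (adjusted p = 0.42) and SED1, for an abundant cell wall protein, fell by 1.15 (SE 0.23; adjusted p = 0.0175), to a mean of 2956 with inducer, against 6374 in vehicle.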
